A study of Macaca mulatta with 24 samples.

Results

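The genes described here move cholesterol out of cells and remodel the lipoproteins that carry it, and were read from RNA-seq of omental white adipose tissue (WAT), a visceral fat depot. The set was a named list of 10 genes, *ABCA1*, *ABCG1*, *NR1H3*, *APOE*, *APOC1*, *APOD*, *PLTP*, *CETP*, *LPCAT3* and *MYLIP*, matched to the Ensembl identifiers of the count table by their symbols. Of the 32386 genes in the table, 9 were matched to the list, and all 9 were among the 15207 genes that passed the filter on low counts. *MYLIP* was not analysed here. The biopsies came from 24 young adult female rhesus macaques (age 4 years in the labels), 6 in each of 4 groups, after 3 years of treatment. The controls (*C*) carried cholesterol implants and ate monkey chow, the *T* group carried testosterone implants, given to mimic hyperandrogenemia, and ate chow, the *WSD* group carried cholesterol implants and ate a high-fat western-style diet, and the *T* + *WSD* group received both treatments. All animals thus carried an implant, and the implant of *C* and *WSD* was itself cholesterol. The study picked these animals from larger groups because their fat mass and insulin matched the group findings, which limits how far they stand for all treated animals. One library per animal was made from RNA depleted of ribosomal RNA and the reads were not paired. The question for these genes was whether diet, testosterone or their combination changed the level of the cholesterol export programme of the depot.

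Cholesterol that enters or is made in an adipocyte or a macrophage leaves it mainly through ABC transporters, which hand it to apolipoproteins and lipoprotein particles. The liver X receptor LXRα, encoded by *NR1H3*, senses oxysterols, pairs with a retinoid X receptor (RXR) and switches on *ABCA1*, *ABCG1*, *APOE*, *APOC1*, *PLTP*, *CETP*, *LPCAT3* and *MYLIP*, so the genes form a feedback that exports excess sterol. Adipose tissue stores much of the body's free cholesterol and is, in primates, one of the tissues that make cholesteryl ester transfer protein.

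Levels are given as counts per 1000000 (CPM) of the library size after TMM scaling. Total counts ran from 6899185 to 28270776 per library, with a median of 20630512.5, and the 9 genes had between 57 and 110146 counts in each library, so counting error was small beside the spread between animals. Since gene lengths were not used here, levels are compared between groups and not between genes. In 8 libraries, 2 in each group, a single gene took 9.92% to 54.7% of the counts, against 0.879% to 2.51% in the other 16, and these 8 are called the library batch (a property of the counts, not of the labels). The control animal *C* 1 stood apart, with a summed level of 38893 CPM for 9 mesothelial markers and 2661 CPM for 7 adipocyte markers, against 2722 to 9751 and 7961 to 13854 CPM in the other controls. A gene was called at an adjusted p under 0.05 (edgeR's quasi-likelihood F-test, Benjamini-Hochberg over all tested genes) and a fold change over 1.5, and rose or fell is used only of called genes.

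Of the 9 genes, 4 rose in *T* + *WSD* against *C*, and none fell. They were *ABCA1*, *NR1H3*, *APOD* and *PLTP*, with increases from 1.64-fold to 2.47-fold. Over all tested genes, 10% were called in this comparison, 4.72% higher and 5.29% lower. The median log2 fold change of the 9 genes was 0.72, against -0.04 over all tested genes, and 9 of 9 values were above 0. This list and those below were chosen with earlier results of these data known. Shares or medians above those of all genes are therefore no independent evidence. In the 16 libraries outside the batch, with 4 animals per group, none of the 9 passed the threshold, and 78 of 15448 genes did. The log2 fold changes of the 4 were then 0.70 for *ABCA1* (adjusted p = 0.108), 0.68 for *NR1H3* (0.117), 0.88 for *APOD* (0.277) and 0.80 for *PLTP* (0.127).

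*ABCA1* (ENSMMUG00000020608), the transporter that loads cholesterol and phospholipid onto lipid-poor apolipoprotein A-I, had a higher median on the western-style diet with either implant. Neither diet difference within a hormone state was called. In *C* its level ran from 258 to 359.8 CPM with a median of 294, and in *T* from 218 to 464 CPM with a median of 319.8. On the diet it ran from 314 to 755 CPM in *WSD* (median 496) and from 406 to 617 CPM in *T* + *WSD* (median 482). All 6 *T* + *WSD* animals lay above all 6 controls, and 4 of 6 *WSD* animals did, while the range of *T* + *WSD* lay inside that of *WSD*.

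The mean of *ABCA1* went from 303 ± 46.2 CPM (SD, n = 6) in *C* to 496 ± 76.7 CPM in *T* + *WSD*, a log2 fold change of 0.71 (SE 0.19, adjusted p = 0.0167). In *WSD* the difference from *C* was of similar size, 0.75 (SE 0.20), but missed the threshold (adjusted p = 0.131). Averaged over both hormone states, the diet difference was 0.67 (SE 0.14, adjusted p = 0.0089), and this call and that of *T* + *WSD* held in 24 of 24 fits with 1 animal left out. Testosterone made little difference to the level, with 0.12 (SE 0.19) in *T* against *C* and -0.04 (SE 0.19) in *T* + *WSD* against *WSD*. In *T* + *WSD* against *T*, the difference of 0.59 (SE 0.19) had an adjusted p of 0.0656. It passed without *C* 1 (adjusted p = 0.0491), *T* 18 (0.0467) or *WSD* 20 (0.0487), by DESeq2 (0.0281), with upper-quartile normalization (0.0495) and with only the groups compared (0.0232).

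*ABCG1* (ENSMMUG00000018058), which exports cholesterol to mature high-density lipoprotein, varied widely among animals of the same group and was not called in any comparison. Its level ran from 35.2 to 191 CPM in *C* (median 77.8), from 91.9 to 429.7 CPM in *T* (median 169.7), from 37.8 to 438 CPM in *WSD* (median 139.9) and from 108 to 229 CPM in *T* + *WSD* (median 132). The groups overlapped, and *WSD* spanned nearly the whole range of the other groups. The log2 fold changes against *C* were 1.16 (SE 0.52, adjusted p = 0.568) in *T*, 0.93 (SE 0.52, adjusted p = 0.340) in *WSD* and 0.71 (SE 0.52, adjusted p = 0.371) in *T* + *WSD*.

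*NR1H3* (ENSMMUG00000015598), the receptor itself, rose in *T* + *WSD*. Its level ran from 10.2 to 42.1 CPM in *C* (median 29.4), from 28.9 to 44.8 CPM in *T* (median 35.8), from 30.8 to 57.5 CPM in *WSD* (median 40.3) and from 39.6 to 58.8 CPM in *T* + *WSD* (median 45.3). The mean thus stood lowest in *C* and highest in *T* + *WSD*, with *T* and *WSD* between them, and each group overlapped its neighbour in that order. Of the 6 *T* + *WSD* animals, 5 lay above every control. The log2 fold change of *T* + *WSD* against *C* was 0.78 (SE 0.25, adjusted p = 0.0324). This call was lost without *C* 1 (adjusted p = 0.0560), *C* 4 (0.0681), *C* 6 (0.0513), *T* + *WSD* 8 (0.0676) or *T* + *WSD* 9 (0.0621). Under 14 other settings of the processing, *NR1H3* was called in 10, against 11 for each of *ABCA1*, *APOD* and *PLTP*.

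**Figure D1:**
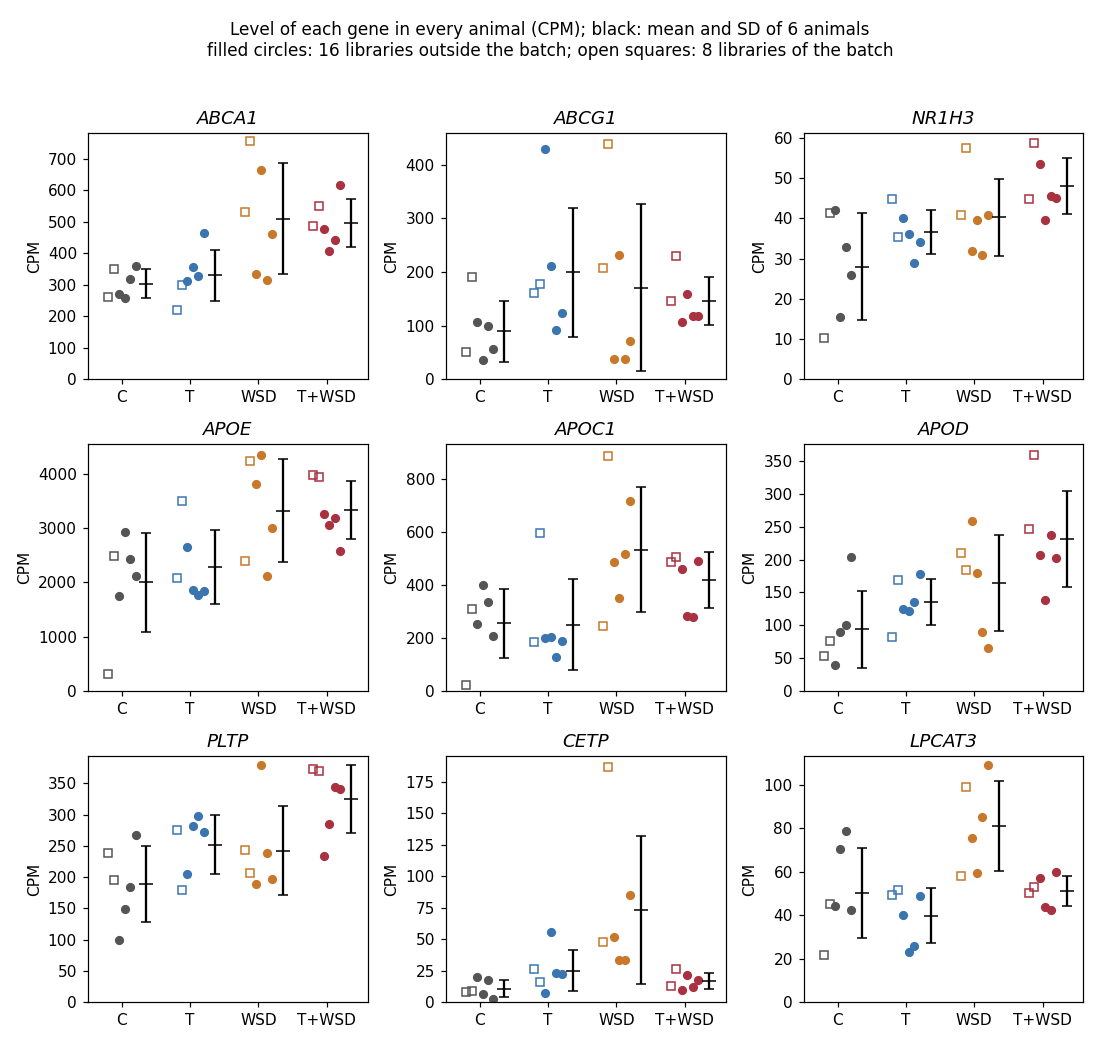
Level of the 9 genes in every animal, in CPM on axes that start at 0, by group (*C*, *T*, *WSD*, *T* + *WSD*; 6 animals each). Black bars show the mean and SD, and open squares the 8 libraries of the batch. *ABCA1* in *T* + *WSD* lay above all controls, and *CETP* in *WSD* lay above all *C* and all *T* + *WSD* animals.

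Among the apolipoproteins, *APOD* rose in the combined treatment, while *APOE* and *APOC1* had higher means on the diet that missed the threshold. *APOD* (ENSMMUG00000031415) encodes a lipocalin that binds small lipids and circulates on high-density lipoprotein. Its level ran from 39.5 to 203 CPM in *C* (median 83.0), from 81.6 to 178 CPM in *T* (median 129.8), from 65.0 to 259 CPM in *WSD* (median 182) and from 138 to 359.6 CPM in *T* + *WSD* (median 223). The means were ordered *C*, *T*, *WSD* and *T* + *WSD*, every neighbouring pair overlapped, and *C* 6 (203 CPM) reached into the range of *T* + *WSD*.

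*APOD* had the largest log2 fold change of the 9 genes in *T* + *WSD* against *C*, 1.31 (SE 0.35, adjusted p = 0.0154), from 93.6 ± 58.3 to 232 ± 73.2 CPM (SD, n = 6). It was called in 24 of 24 fits with 1 animal left out. The diet difference averaged over hormone states was 0.79 (SE 0.25, adjusted p = 0.0389), and 1.73-fold in linear terms. That call held in 11 of 24 such fits, with a highest adjusted p of 0.0791 without *WSD* 21, and it was lost without any of *C* 1, *C* 3, *T* 13, *T* 15, *T* 16, *T* 17, *WSD* 20, *WSD* 21, *WSD* 22 or *T* + *WSD* 7, 8, 9 and 11. Alone, diet gave 0.81 (SE 0.35, adjusted p = 0.220) and testosterone 0.53 (SE 0.35, adjusted p = 0.674), both against *C*.

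*APOE* (ENSMMUG00000014305) encodes the apolipoprotein that ligates the low-density lipoprotein receptor family and is secreted by both adipocytes and macrophages. The level ran from 305 to 2923 CPM in *C* (median 2276), from 1777 to 3494 CPM in *T* (median 1974), from 2121 to 4346 CPM in *WSD* (median 3413) and from 2582 to 3975 CPM in *T* + *WSD* (median 3224). The lowest value was that of *C* 1. The log2 fold changes against *C* were alike in *WSD*, 0.73 (SE 0.33, adjusted p = 0.239), and *T* + *WSD*, 0.74 (SE 0.33, adjusted p = 0.122). The diet difference averaged over hormone states was 0.64 (SE 0.23, adjusted p = 0.0717) and passed both thresholds without *T* 14 (adjusted p = 0.0434) and by DESeq2 (adjusted p = 0.0360).

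*APOC1* (ENSMMUG00000028749) encodes an apolipoprotein that inhibits CETP and lipoprotein clearance. Its level ran from 22.4 to 399 CPM in *C* (median 282), from 128 to 597 CPM in *T* (median 193), from 244 to 888 CPM in *WSD* (median 503) and from 280.4 to 507 CPM in *T* + *WSD* (median 474). As for *APOE*, the lowest animal was *C* 1, and the groups overlapped. The largest of its differences from *C* was that of *WSD*, 1.07 (SE 0.45, adjusted p = 0.219). Averaged over hormone states the diet difference was 0.91 (SE 0.32, adjusted p = 0.0643), which passed without *T* 14 (adjusted p = 0.0175) or *WSD* 19 (adjusted p = 0.0436), in the 16 libraries outside the batch (0.94, adjusted p = 0.0192) and by DESeq2 (adjusted p = 0.0284).

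The lipid transfer proteins did not move together. *PLTP* (ENSMMUG00000009963) moves phospholipid from triglyceride-rich particles to high-density lipoprotein, and it rose in *T* + *WSD*. Its level ran from 99.1 to 267 CPM in *C* (median 189.6), from 179.9 to 298 CPM in *T* (median 274), from 188 to 379.7 CPM in *WSD* (median 223) and from 234 to 372 CPM in *T* + *WSD* (median 343). Of the *T* + *WSD* animals, 5 of 6 lay above every control. The mean went from 189 ± 60.5 CPM (SD, n = 6) in *C* to 324 ± 54.4 CPM, a log2 fold change of 0.78 (SE 0.21, adjusted p = 0.0145), called in 24 of 24 fits with 1 animal left out. Each treatment alone gave about the same smaller value, 0.42 (SE 0.20, adjusted p = 0.579) for *T* and 0.36 (SE 0.20, adjusted p = 0.343) for *WSD*. The difference of *T* + *WSD* from *WSD* was 0.42 (SE 0.21, adjusted p = 0.257), and the interaction term was 0.00 (SE 0.29).

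*CETP* (ENSMMUG00000017563) exchanges cholesteryl ester for triglyceride between lipoproteins, and its level was high in *WSD* alone. The level ran from 2.49 to 20.3 CPM in *C* (median 8.84), from 7.63 to 56.02 CPM in *T* (median 22.7), from 33.8 to 186 CPM in *WSD* (median 50.2) and from 9.65 to 26.6 CPM in *T* + *WSD* (median 15.3). All 6 *WSD* animals lay above all 6 animals of *C* and above all 6 of *T* + *WSD*, while *T* reached into the range of *WSD*. The highest animal, *WSD* 20, had more than the next, *WSD* 24, at 85.6 CPM.

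The mean of *CETP* was 10.8 ± 6.81 CPM (SD, n = 6) in *C*, 25.3 ± 16.5 CPM in *T*, 73.4 ± 58.5 CPM in *WSD* and 16.9 ± 6.43 CPM in *T* + *WSD*. In *WSD* against *C* the log2 fold change was 2.76 (SE 0.52), or 6.75-fold, ranked 2 of 15207 genes by p, and yet its adjusted p was 0.0593 and it was not called. It was called without *WSD* 19 (adjusted p = 0.0380), when 59 of 15348 genes were called, and by DESeq2 (adjusted p = 5.13e-05). In *T* + *WSD* against *WSD*, *CETP* fell by 2.14 on the log2 scale (SE 0.51, adjusted p = 0.0370). This call was lost without *WSD* 20 (-1.61, adjusted p = 0.0983) or *WSD* 24 (0.0960), and without any 1 of the 6 *T* + *WSD* animals (adjusted p from 0.0647 to 0.0840).

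In the main fit the diet difference of *CETP* differed between the hormone states, with an interaction of testosterone and diet of -3.36 (SE 0.71, adjusted p = 0.0417). With testosterone, diet gave -0.61 (SE 0.49, adjusted p = 0.460). *CETP* was the only 1 of the 9 genes called for the interaction, against 0.243% of all tested genes, and also the only 1 at an adjusted p under 0.1, against 0.809%. The interaction held its call in 5 of 24 fits with 1 animal left out, those without *C* 3, *T* 15, *WSD* 19, *WSD* 21 or *WSD* 23, and the other 19 gave adjusted p from 0.0540 to 0.0796, with the largest without *WSD* 20 and *T* + *WSD* 9. Inside the library batch the controls had a mean of 8.84 CPM, the *T* animals 21.2, the *WSD* animals 117 and those with both treatments 19.9, and outside it the means were 11.7, 27.3, 51.4 and 15.4 CPM, so that *WSD* was highest in both. The fit of the 16 libraries outside the batch gave an interaction of -2.95 (adjusted p = 0.362).

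Averaged over hormone states, the diet difference of *CETP* was 1.07 (SE 0.35, adjusted p = 0.0472), but this average joins a difference of 2.76 without testosterone and one of -0.61 with it. It was called in 6 of 24 fits with 1 animal left out, those without *C* 3, *C* 5, *T* 16, *WSD* 19, *WSD* 22 or *WSD* 23, and the adjusted p reached 0.0958 without *WSD* 20.

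**Figure D2:**
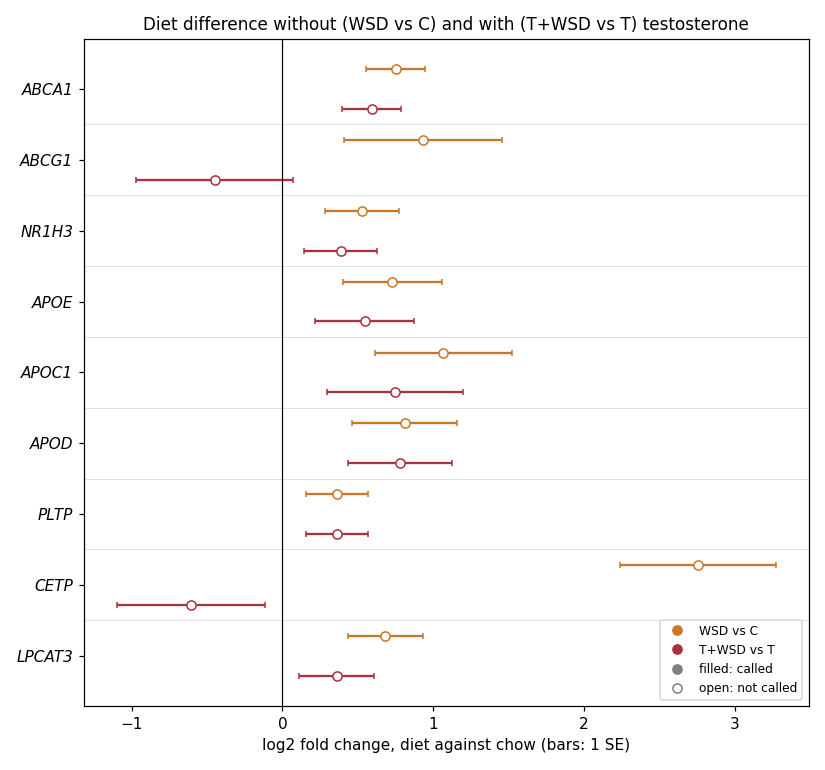
Diet difference of each gene as log2 fold change with 1 SE, without testosterone (*WSD* against *C*, orange) and with it (*T* + *WSD* against *T*, red). *CETP* has 2.76 and -0.61, and no point is filled because none of these differences was called.

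*LPCAT3* (ENSMMUG00000010210), an acyltransferase that puts polyunsaturated fatty acids into membrane phospholipids, also had its highest mean in *WSD*, but no call. The level ran from 21.8 to 78.6 CPM in *C* (median 44.6), from 23.2 to 51.6 CPM in *T* (median 44.5), from 58.1 to 109 CPM in *WSD* (median 80.3) and from 42.6 to 60.0 CPM in *T* + *WSD* (median 51.6). Of the *T* + *WSD* animals, 5 of 6 lay below every *WSD* animal. Its log2 fold change was 0.68 (SE 0.25, adjusted p = 0.172) in *WSD* against *C*, 0.02 (SE 0.25, adjusted p = 0.975) in *T* + *WSD* against *C*, and -0.66 (SE 0.25, adjusted p = 0.137) in *T* + *WSD* against *WSD*. The diet difference averaged over hormone states was 0.52 (SE 0.18, adjusted p = 0.0540) and passed both thresholds only without *C* 5 (adjusted p = 0.0233).

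Set against the background of all tested genes, the calls of the set fell in a few comparisons. The diet difference averaged over hormone states called 3 of the 9 higher (*ABCA1*, *APOD*, *CETP*) and none lower, where 5.30% of all tested genes were called, 2.43% higher and 2.87% lower. In *T* + *WSD* against *WSD* the 1 call was *CETP*, lower, where 0.815% were called, 0.434% higher and 0.381% lower. *WSD* against *C* called none of the 9 and 0% of all genes by edgeR, although 7 of the 9 had an unadjusted p under 0.05, as did 18.5% of all genes, and DESeq2 called 2, *CETP* and *ABCA1*, among 238 of 15027 genes. In *T* against *C* edgeR called none of the 9 and 0% of all genes, DESeq2 called none of the 9 and 7 of 15027 genes, and 2 of the 9, *CETP* and *ABCG1*, had an unadjusted p under 0.05, as did 8.63% of all genes. In *T* + *WSD* against *T* edgeR called none of the 9, where 3.77% of all genes were called, 2.34% higher and 1.43% lower. In that comparison *ABCA1* and *APOD* had an unadjusted p under 0.05, and DESeq2 called *ABCA1*, among 1086 of 18335 genes. Averaged over diets, testosterone called none of the 9 and 0% of all genes by edgeR, with 3 of the 9 (*APOD*, *PLTP* and *LPCAT3*) at an unadjusted p under 0.05, as were 16.5% of all genes, and DESeq2 called none of the 9 and 129 of 14553 genes. The 3 comparisons with *C* share the control animals.

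**Figure D3:**
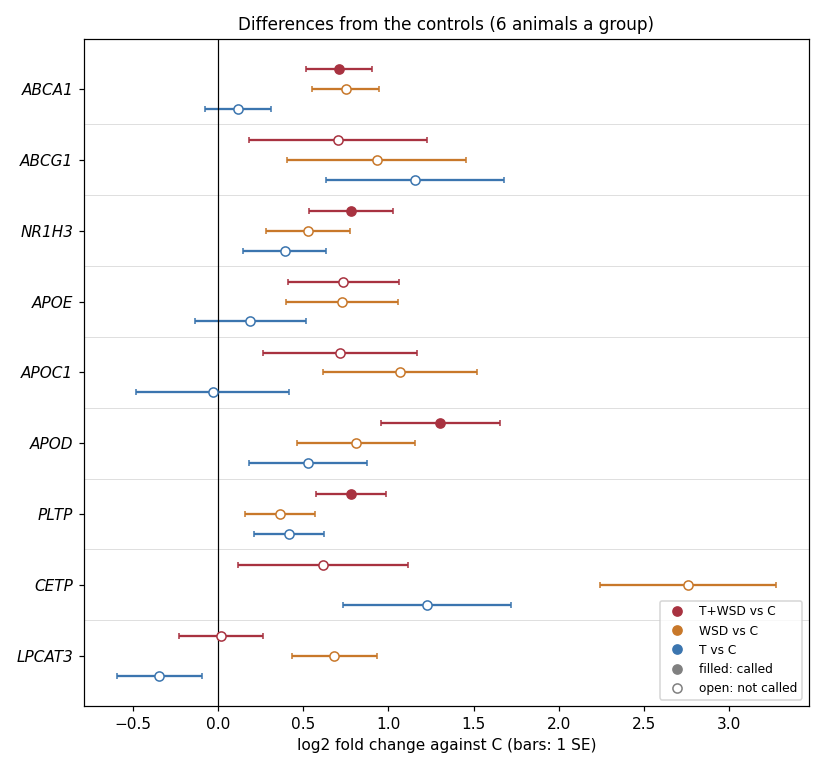
Log2 fold change of the 9 genes against *C* with 1 SE, for *T* + *WSD* (red), *WSD* (orange) and *T* (blue), with called differences filled. The 4 filled points are *ABCA1*, *NR1H3*, *APOD* and *PLTP* in *T* + *WSD*, and the largest value is that of *CETP* in *WSD*, 2.76.

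Some of the cell type marker lists also differed between *T* + *WSD* and *C*. Over all tested genes, 4.72% were called higher and 5.29% lower in this comparison. The labelled tissue was checked against adipocyte markers, and all 7 of those in the table had counts in every library. In *T* + *WSD* against *C*, 2 of 7 adipocyte markers rose (*FABP4* and *LEP*), and their summed level was 13507 to 20918 CPM against 2661 to 13854 CPM. Of 9 mesothelial markers 8 fell, and their summed level was 235 to 3070 CPM against 2722 to 38893 CPM. Of 11 macrophage markers 2 rose, *ITGAX* and *GPNMB*, but only 7 of the 11 had a log2 fold change above 0, with a median of 0.39. The summed level of the 11 was 946 to 2328 CPM against 367 to 1813 CPM. Of 7 endothelial markers 5 rose, with 1713 to 2676 CPM against 799.6 to 1575 CPM. Of 8 fibroblast and progenitor markers 1 rose, with a median log2 fold change of 0.03 over the list. Of 6 smooth muscle and pericyte markers 2 rose. No tested marker of lymphocytes, plasma cells or red cells, and no immediate early gene, was called. In bulk tissue, fewer cells of a type and less RNA per cell cannot be told apart.

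With the mean level of the mesothelial list as a covariate, none of the 15207 genes was called in *T* + *WSD* against *C*, and *ABCA1*, *APOD* and *NR1H3* had log2 fold changes of 0.51, 0.34 and 0.39. With that of the adipocyte list, again none was called, and the values were 0.61, 0.85 and 0.38. *PLTP*, also not called, had 0.77 with the former and 0.97 with the latter. With the mean of the macrophage list, all 4 remained called, with adjusted p of 0.0236 for *ABCA1*, 0.0253 for *APOD*, 0.0275 for *PLTP* and 0.0482 for *NR1H3*. The mesothelial and adipocyte lists differed between the groups themselves, so that their levels and the treatments cannot be told apart in these fits. For *CETP*, the interaction was -3.69 (adjusted p = 0.0394) with the mesothelial list, -3.37 (0.0389) with the adipocyte list and -3.20 (0.0521) with the macrophage list.

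Other genes of the pathway were taken from a list of 67 in 8 roles, of which 58 were in the table and 53 were tested. Of the 53, 10 rose and 3 fell in *T* + *WSD* against *C*, with a median log2 fold change of 0.27. Over all tested genes, 4.72% were called higher and 5.29% lower there. In the 16 libraries outside the batch none of the 53 was called. *WSD* against *C*, *T* against *C*, the testosterone average and the interaction called none of the 53. In that order, 8, 4, 8 and 7 had an unadjusted p under 0.05, as did 18.5%, 8.63%, 16.5% and 13.5% of all genes. Against *WSD* 1 rose in *T* + *WSD*, where 0.434% of all genes were called higher and 0.381% lower. In *T* + *WSD* against *T* 5 rose and 1 fell, where 2.34% of all genes were called higher and 1.43% lower. The diet average called 5 higher and 1 lower, where 2.43% of all genes were called higher and 2.87% lower.

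No other LXR or RXR gene was called. This held for *NR1H2* (LXRβ), *RXRA*, *RXRB* and *RXRG* in all 8 comparisons. *NR1H2* had 85.0 ± 6.88 CPM in *C* and 82.2 ± 3.36 CPM in *T* + *WSD* (SD, n = 6). *RXRB* had a lower level in *T* + *WSD*, 45.3 ± 1.05 CPM against 53.7 ± 5.50 CPM, with an adjusted p of 0.0197 and a difference of -0.24, under the fold threshold. Of the other known LXR targets, 5 of 9 were tested and none was called. Of these 5, 3 had a log2 fold change above 0 in *T* + *WSD* against *C*. *SREBF1*, the transcription factor of fatty acid synthesis, had 0.81 (SE 0.39, adjusted p = 0.274) in *WSD* against *C* and 0.40 (SE 0.39, adjusted p = 0.521) in *T* + *WSD* against *C*. *FASN*, fatty acid synthase, had 8059 ± 6673 CPM in *C*, 14708 ± 9837 CPM in *WSD* and 3158 ± 1065 CPM in *T* + *WSD*. Its mean in *T* + *WSD* was thus below that of *C*, and its log2 difference from *WSD* was -2.22 (SE 0.61, adjusted p = 0.0601). *LPL*, lipoprotein lipase, had 0.87 (SE 0.37, adjusted p = 0.106) in *T* + *WSD* against *C*.

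Among 8 tested ABC lipid transporters, 3 rose in *T* + *WSD* against *C*. *ABCA6* went from 79.0 ± 40.6 to 167 ± 24.5 CPM (1.08, SE 0.28, adjusted p = 0.0131) and was also higher than in *T* (1.01, adjusted p = 0.0364), with no overlap between *T* + *WSD* and *T*. *ABCA2*, a lysosomal relative of *ABCA1*, went from 100.02 to 184 CPM (0.88, SE 0.26, adjusted p = 0.0269). *ABCG4*, a relative of *ABCG1*, was low, at 0.468 CPM in *C* (1 to 18 counts per library) and 1.17 CPM in *T* + *WSD* (4 to 34 counts), with 1.24 (SE 0.31, adjusted p = 0.0111), and it also rose against *WSD* (1.32, adjusted p = 0.0370) and *T* (1.31, adjusted p = 0.0195). *ABCA8* had 0.57 (SE 0.23, adjusted p = 0.0838).

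The receptors moved in both directions. Of 11 tested, 3 rose and 2 fell in *T* + *WSD* against *C*. *SCARB1*, the receptor that takes up cholesteryl ester from high-density lipoprotein, went from 165 ± 68.1 to 281 ± 53.1 CPM (0.77, SE 0.26, adjusted p = 0.0421). The scavenger receptors *MSR1*, from 13.4 to 41.6 CPM (1.66, SE 0.50, adjusted p = 0.0269), and *STAB1*, from 315 to 622 CPM (0.98, SE 0.27, adjusted p = 0.0177), both known from macrophages or endothelium, rose too and were higher than in *T* (adjusted p = 0.0361 and 0.0226). *VLDLR*, which takes up triglyceride-rich particles, fell from 75.9 ± 18.96 to 40.0 ± 7.25 CPM (-0.92, SE 0.23, adjusted p = 0.0115). *LRP1* had 0.56 (SE 0.18, adjusted p = 0.0368), under the fold threshold, and *CD36* had 0.77 (SE 0.28, adjusted p = 0.0651).

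Of the other apolipoproteins, 1 of 6 tested rose in *T* + *WSD* against *C*. It was *APOB*, the structural protein of hepatic and intestinal lipoproteins, at 0.762 CPM in *C* (3 to 40 counts per library) and 3.04 ± 3.39 CPM in *T* + *WSD* (5 to 230 counts), with 1.99 (SE 0.67, adjusted p = 0.0430). Of 3 tested hepatocyte markers, only *ALB* rose in the same comparison, from 0.212 to 6.96 CPM (5.25, SE 1.27, adjusted p = 0.0099). It had 0 counts in at least 1 library. The 3 had a median log2 fold change of 0.21, with 2 above 0. The summed level of 6 hepatocyte markers overlapped, at 36.4 to 525 CPM in *C* and 124 to 371 CPM in *T* + *WSD*. The part of *ALB* in the result of *APOB* was not tested. *CLU*, *APOO* and *APOM*, those with the highest levels among the 6, had 0.29, 0.03 and 0.28.

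The enzymes had 3 further increases and 1 decrease. *LIPG*, endothelial lipase, rose from 0.203 to 0.877 CPM (2.03, SE 0.58, adjusted p = 0.0198), from 1 to 15 counts per library in *C* and 3 to 29 in *T* + *WSD*. *PON3*, a lipoprotein-associated lactonase, fell from 5.39 ± 6.20 to 0.853 ± 0.651 CPM (-2.55, SE 0.85, adjusted p = 0.0424), with 2 to 309 and 0 to 39 counts per library. *LIPA*, the lysosomal acid lipase that frees cholesterol from its esters, rose from 148 ± 79.2 to 304 ± 171 CPM (1.04, SE 0.36, adjusted p = 0.0465). *LPCAT2*, a relative of *LPCAT3*, rose from 25.2 ± 6.35 to 42.2 ± 3.61 CPM with no overlap between the groups (0.74, SE 0.20, adjusted p = 0.0143), and also rose in the diet average (0.62, adjusted p = 0.0109). *NPC1* and *OSBP*, which move sterol within cells, had 0.42 (adjusted p = 0.141) and 0.10 (adjusted p = 0.711), *ANGPTL4* and *PON2* had 0.30 and 0.33, and *LPCAT1* and *MBOAT1* had 0.06 and 0.09.

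**Figure D4:**
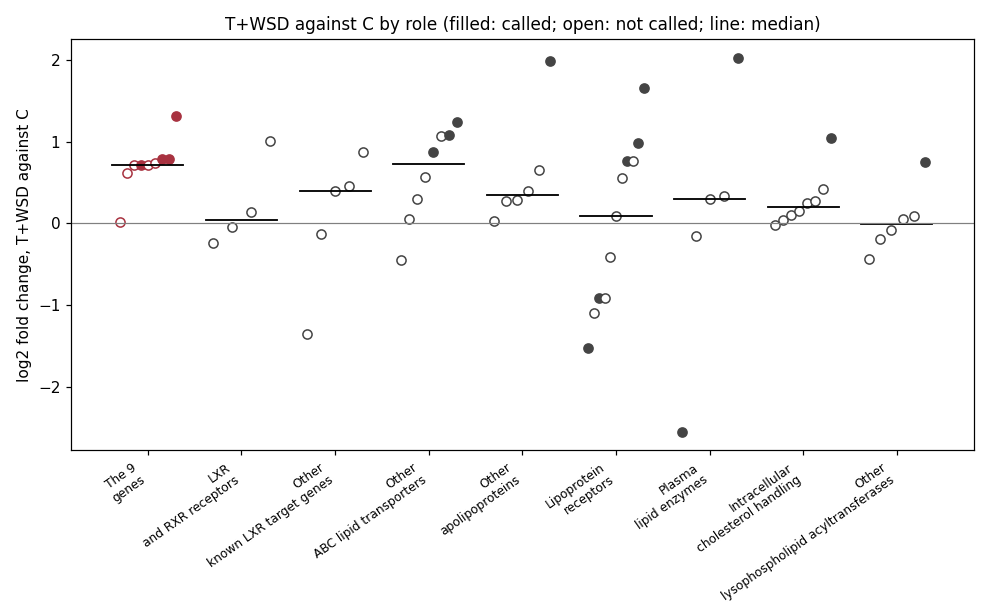
Log2 fold change of *T* + *WSD* against *C* for the 9 genes (red) and the 53 other pathway genes by role (dark), with called genes filled and medians as lines. The 9 genes have a median of 0.72, the other ABC lipid transporters 0.72 and the lipoprotein receptors 0.08, with called genes on both sides of 0.

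Within groups, the 9 genes also varied together in some pairs. After each group's mean log2 CPM (prior count 2) was subtracted, 27 of the 36 pairs had a positive r over the 24 animals, and the median r was 0.17. With 100000 permutations of animals within groups, 3 pairs had an adjusted p under 0.05 over the 36. *APOC1* and *LPCAT3* had r = 0.80 and rho = 0.71 (adjusted permutation p = 0.00108 and 0.00306), *ABCG1* and *NR1H3* had r = 0.64 and rho = 0.72 (0.00432 and 0.00306), and *APOE* and *APOC1* had r = 0.86 and rho = 0.67 (0.0326 and 0.0498).

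Without the 2 animals farthest from the median of the first gene, r was 0.67, 0.61 and 0.68. In the 16 libraries outside the batch, r was 0.74 for *APOC1* and *LPCAT3*, 0.64 for *ABCG1* and *NR1H3* and 0.01 for *APOE* and *APOC1*, and in the 8 libraries of the batch it was 0.93, 0.94 and 0.97. The relation of *APOE* and *APOC1* thus did not hold outside the batch, and no pair passed the adjusted threshold in the 16 libraries. In the batch, with 2 animals per group, each group added only 1 independent difference to r. *ABCG1* and *LPCAT3*, with r = -0.02 over the 24 animals, had 0.97 there as well. *APOE* and *APOC1* also lost their call without *C* 1 (r = 0.56), and without *C* 3, *C* 4, *C* 6, *T* 14, *WSD* 19 or *WSD* 20 (r from 0.85 to 0.87), while the other pairs kept theirs in 24 of 24.

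The adipocyte list varied with some of these genes within groups. Of 45 relations between the 9 genes and the mean log2 CPM of 5 marker lists, tested with the same permutations, 2 had an adjusted p of r under 0.05. *APOE* and the adipocyte list had r = 0.95 and rho = 0.87 (adjusted permutation p = 0.0009 and 0.0018), with r = 0.84 without the 2 animals farthest from the list's median, 0.85 in the 16 libraries outside the batch and 0.99 in the 8 in it. *APOD* and the endothelial list had r = 0.65 and rho = 0.58 (adjusted permutation p = 0.0493 and 0.124), with r = 0.51, 0.71 and 0.91 in the same order. The values of the 8 libraries again rest on 2 animals per group. *APOC1* and the adipocyte list had r = 0.82 and rho = 0.57 (adjusted permutation p = 0.0627 and 0.131), which became 0.50 without the 2 farthest animals and -0.01 in the 16 libraries, and *LPCAT3* had r = 0.61 and rho = 0.38 (0.179 and 0.422), which became 0.26 and 0.22. With the mesothelial list, *APOE* had r = -0.45 and rho = -0.54 (adjusted permutation p = 0.0627 and 0.124). *APOD* had r = -0.56 and rho = -0.49 with it (adjusted permutation p = 0.0713 and 0.260). In the 16 libraries outside the batch these r were -0.29 and -0.52. The part of the adipocyte list in the relations between pairs of genes was not tested.

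**Figure D5:**
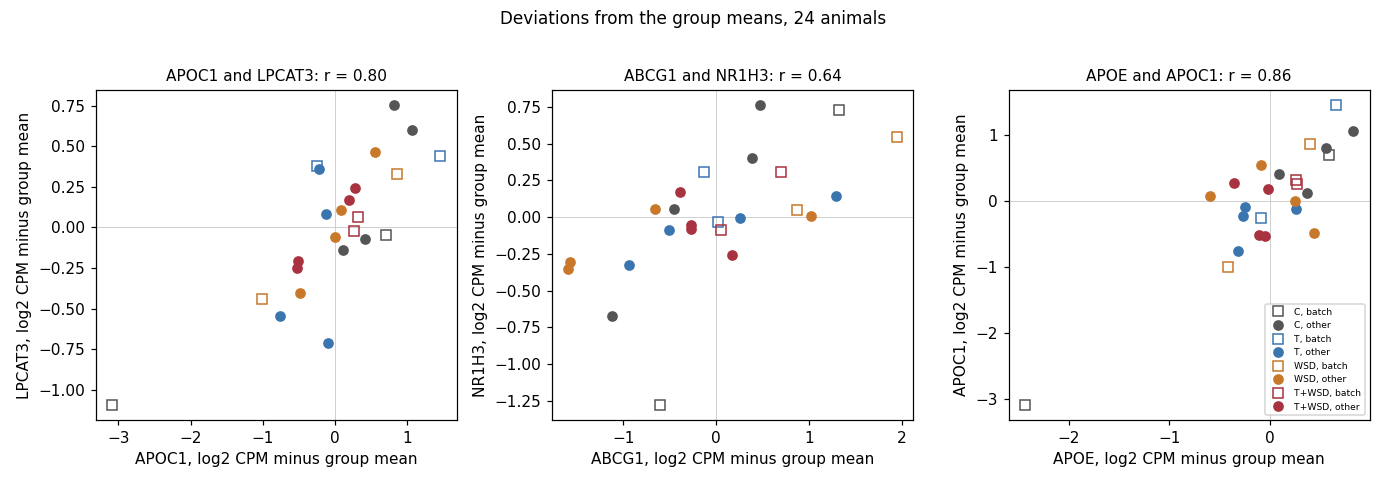
Log2 CPM minus the group mean of the 3 pairs with an adjusted permutation p under 0.05, 1 point per animal (24), coloured by group, with open squares for the 8 libraries of the batch. The open grey square far from the others at the lower left of the outer panels is *C* 1, and without it r for *APOE* and *APOC1* is 0.56.

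The genes whose log2 CPM was most like each member over the 24 animals, groups and batch included, are given by Pearson's r as a description. For *APOE* they were *RETSAT* (0.95), *PLIN1* (0.95) and *ADORA1* (0.95), and for *APOC1* *RBP4* (0.95), *SGK2* (0.95) and *DGAT2* (0.93). *PLIN1*, the perilipin of the fat droplet, is 1 of the adipocyte markers. For *LPCAT3* they were *ACACA* (0.93), *DECR2* (0.90) and *THRSP* (0.89), for *APOD* *NUP214* (0.91), *PTPRM* (0.86) and *MMRN2* (0.85), and for *NR1H3* *GRIA2* (0.89), *SORL1* (0.83) and *UGT1A1* (0.82). For *ABCG1* they were *SQSTM1* (0.84), *EIF4EBP3* (0.82) and *RBM19* (0.81). The likeness was weaker for *PLTP*, with *CLEC10A* (0.75), *PRRC2C* (0.74) and *SASH1* (0.74), for *CETP*, with *ABCC6* (0.76), *HMOX2* (0.73) and *RSAD1* (0.72), and for *ABCA1*, with *CCDC3* (0.74), *STAC* (0.73) and *ZBTB20* (0.73).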

How the data were processed

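RNA from omental WAT of 24 animals was sequenced with 1 library each. The authors trimmed single reads with Trimmomatic 0.36, aligned them to rheMac8 with STAR 2.5.2b, used FastQC 0.11.5 and DESeq2 1.18.1, and the table they deposited holds raw counts, not normalized. The counting tool and its strand setting are not given in the sources used here, so reads shared by overlapping, antisense or near-identical genes could not be told apart. Groups came from the labels. The labels give the ages printed here, and the age in the study's methods differs.

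Symbols came from a gene name table or, for *APOD* among the members, from the study's supplementary tables, whose fold changes and p-values were not used. Positions and lengths of genes were not used, and sequences are not shown here. Counts were filtered with filterByExpr (minimum count 10, minimum total 15), TMM-normalized and tested in edgeR 4.0.16 (R 4.3.3) with glmQLFit and glmQLFTest (quasi-likelihood, robust=TRUE, legacy=TRUE) in 1 fit of 4 groups, with 8 contrasts, two-sided, and Benjamini-Hochberg adjustment over 15207 genes. The SE is the absolute log2 fold change divided by the square root of F. The test was tested on simulated data.

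The members and lists were chosen with earlier results of these data known. Named genes were all members, each role's called genes and otherwise its 3 with the highest mean CPM, and for each member the 3 tested genes with a symbol of highest r. Marker genes are given as lists, and the permutation test of their relation to the members was added after seeing the data. The values of 1 called gene of the lists are not reported here. Promoter and protein sequences of the members were not analysed here.

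Alternatives were DESeq2 1.42.0, its size factors or upper-quartile normalization in edgeR, other filters (none, or at least 10 counts in every animal), robust=FALSE, legacy=FALSE, a fit of the compared groups alone, the batch gene left out, the batch as a covariate, the 16 libraries outside it, a marker list's mean as a covariate, other fold thresholds, a prior count of 0.5 and each animal left out. The replicates were separate animals.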

Additional observations from a re-analysis of the deposited data

Results flagged for a closer look

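Dixon's criterion at the 95% level flags by chance about 1 in 20 groups of normally distributed values, or 1.8 of 36. It was applied here to CPM without logs, so this rate may not hold, and log2 values were not tested. In 5 of the 36 groups of 6 values (9 genes in 4 groups), 1 animal stood apart from the others, each time as the highest. They were *ABCG1* in *T* 15, at 429.7 CPM with the next animal at 211, *APOC1* in *T* 14, at 597 CPM with the next at 204, *APOD* in *C* 6, at 203 CPM with the next at 99.7, *PLTP* in *WSD* 22, at 379.7 CPM with the next at 244, and *CETP* in *WSD* 20, at 186 CPM with the next at 85.6.

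The difference between diet and chow of *CETP* differed between the hormone states by the test of the interaction, -3.36 on the log2 scale (edgeR, adjusted p = 0.0417).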

How the results depend on the processing

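No result changed sign with a call on either side. Of the values of single genes and pairs under the alternatives, 3424 kept their side of the threshold, 319 fell below it and 19 passed it. The other pathway genes and the pairs entered only where called in the main fit, so they could not be among the 19. The larger changes in the counts of the 9 genes called are given next. *T* + *WSD* against *C* (4) gave 0 in the 16 libraries, 0 with the mesothelial and 0 with the adipocyte covariate, and 1 at a fold change over 2. *WSD* against *C* (0) gave 2 by DESeq2. *T* + *WSD* against *WSD* (1) gave 0 without a filter, with only the groups compared, in the 16 libraries and with the mesothelial or macrophage covariate, and 2 with the adipocyte covariate. *T* + *WSD* against *T* (0) gave 1 by DESeq2, 1 by upper-quartile normalization, 2 with only the groups compared and 1 in the 16 libraries. The diet average (3) gave 5 by DESeq2, 1 without a filter, 1 in the 16 libraries, 1 at a fold change over 2 and 0 with the mesothelial or adipocyte covariate. The interaction (1) gave 0 without a filter, in the 16 libraries and with the macrophage covariate. The 3 correlated pairs became 0 in the 16 libraries. The 16 libraries are fewer animals, and the cause of the other changes was not tested.

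With each animal left out in turn the counts ran from 3 to 4, 0 to 1, 0 to 1, 0 to 1, 1 to 4 and 0 to 1 in the same order, and from 2 to 4 for the pairs. Over all genes, *T* + *WSD* against *C* called 1522, but 78 in the 16 libraries, 0 with the mesothelial or adipocyte covariate and 900 without *C* 1. *T* + *WSD* against *T* called 574, but 1086 by DESeq2, 1059 with only the groups compared, 308 in the 16 libraries, 396 and 392 under the macrophage covariate and without a filter, 196 and 0 under the adipocyte and mesothelial covariates, and 238 without *T* + *WSD* 10. *T* + *WSD* against *WSD* called 124, but 430 by DESeq2, 302 under the adipocyte covariate, 68 without a filter, 60 under the macrophage covariate, 46 with only the groups compared, 1 under the mesothelial covariate, 0 in the 16 libraries and 9 to 448 with an animal left out (without *WSD* 24 and *WSD* 21). The diet average called 806, but 531 under the macrophage covariate, 500 with at least 10 counts in every animal, 443 in the 16 libraries, 0 under the other 2 covariates and 477 without *WSD* 21. The interaction called 37, but 165 by DESeq2, 19 under the mesothelial covariate, 7 without a filter, 0 in the 16 libraries and 11 to 96 without *C* 1 and *WSD* 21. By DESeq2, *WSD* against *C* called 238, *T* against *C* 7 and the testosterone average 129, where edgeR called 0, or 59 for *WSD* against *C* without *WSD* 19. No paired analysis was possible because the groups share no replicate numbers.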
